A study of Arabidopsis thaliana with 16 samples.

Results

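Genome-wide regions bound by ENAP1 in the ethylene-insensitive ein2 mutant of Arabidopsis thaliana were compared between ethylene-treated and air-treated seedlings. The peak set of ein2 ethylene held 4696 regions and that of ein2 air 3252, together 7948 of the 20937 regions in the 4 peak sets analysed here. An ein2 ethylene region was called kept if it overlapped an ein2 air region by at least 1 bp, and gained if it overlapped none. An ein2 air region with no overlapping ein2 ethylene region was called lost. These words name set membership and not a tested change of binding.

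Ethylene is perceived by receptors in the endoplasmic reticulum membrane, which in air keep the kinase CTR1 active. CTR1 restrains EIN2, and when ethylene is bound the C-terminal part of EIN2 is released and enters the nucleus, where the transcription factors EIN3 and EIL1 act. ENAP1, found in the nucleus, binds the C-terminal part of EIN2 and with histones, and has been linked to acetylation of histone H3 at lysine 23. Plants without EIN2 function show no ethylene response, so ethylene against air in ein2 shows how ENAP1 regions differ between the treatments where the signal cannot pass through EIN2.

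Chromatin immunoprecipitation followed by sequencing (ChIP-seq) used an antibody against green fluorescent protein on whole seedlings grown in darkness at 24 C for 3 days. The groups were ein2 kept for 4 hours in hydrocarbon-free air with 10 ppm ethylene, ein2 kept for 4 hours in the same air without ethylene, and the wild-type line Col-0 under both treatments. There were 2 ChIP and 2 input samples for each of these 4 conditions (16 samples, 8 of them in ein2), but only 1 peak set, named for both ChIP replicates. Sources used here give neither the ein2 allele nor the promoter of the tagged ENAP1, no sample is a ChIP from untagged plants, and the labels do not say whether replicates were separate batches of plants.

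No replicate spread can therefore be given, no difference between conditions was tested, and the 95% Wilson intervals below cover counting error only. The peak files hold no read counts, so depth is unknown, and peak sets cannot show whether the seedlings were ein2. In the peak set names, libraries of ChIP in air bear a bare number in either line, and those of ChIP in ethylene a number with the letter C. Any difference that this marks between libraries and the ethylene treatment cannot be told apart. The lowest −log10 q kept was 6.57 in ein2 ethylene and 10.9 in ein2 air, so the ethylene set reaches weaker regions. Each main count was for that reason repeated with the 3252 regions of lowest p from both sets, called equal numbers below. The last ethylene region inside this limit had a −log10 p of 11.5, as had the first of the 1444 left outside. All 3252 ein2 air regions stayed in, so this rule removed ein2 ethylene regions alone. By construction, counts of gained genes could then only fall and counts of lost genes only rise.

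Most strong ENAP1 regions of ein2 were present with and without ethylene, and weaker regions were shared less. When the regions of each set were ranked by p and divided into 10 equal parts, 466 of the 469 strongest ein2 ethylene regions were also in ein2 air (99.4%, interval 98.1 to 99.8). Of the weakest part of ein2 ethylene, 21.7% were shared (18.2 to 25.7). All 325 of the strongest ein2 air regions were in ein2 ethylene (100%, 98.8 to 100), against 61.0% of the weakest ein2 air part (55.7 to 66.2). The ranking by the authors' fold enrichment gave another shape in ein2 ethylene. There 72.1% of the part with lowest fold (67.9 to 76.0), 36.6% of the sixth part (32.4 to 41.0) and 90.2% of the part with highest fold (87.2 to 92.6) were shared.

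**Figure D1:**
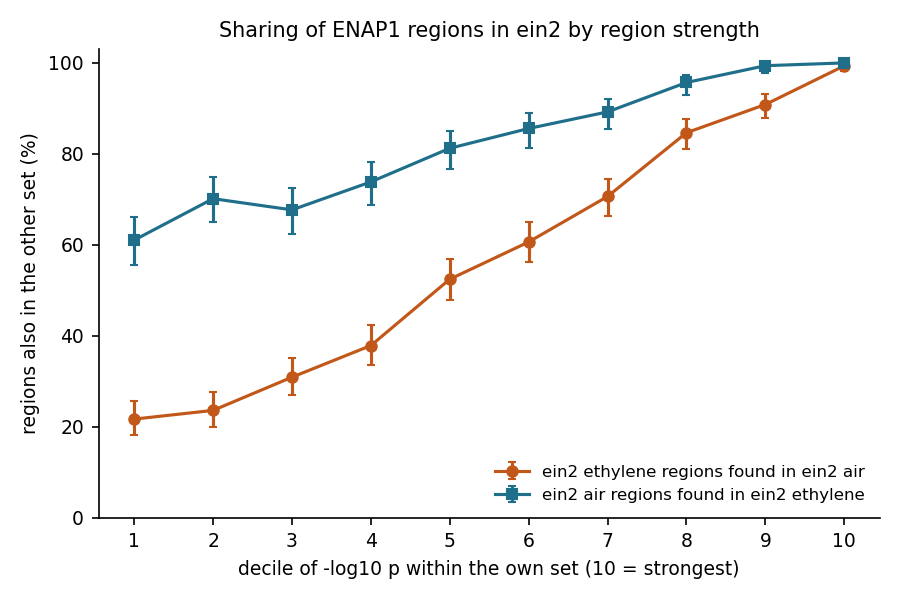
Share of ein2 ethylene regions found in ein2 air (orange circles) and of ein2 air regions found in ein2 ethylene (blue squares), in percent, by decile of −log10 p within the own set. Bars are 95% Wilson intervals for counting error only; the shares run from 21.7% to 99.4% in ein2 ethylene and from 61.0% to 100% in ein2 air.

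Few of the strongest regions lacked a counterpart. Among the 1000 ein2 ethylene regions of lowest p, 53 overlapped no region of the whole ein2 air set (5.30%, interval 4.07 to 6.87). Among the 1000 ein2 air regions of lowest p, 17 overlapped none of the whole ein2 ethylene set (1.70%, 1.06 to 2.71), and 39 overlapped none of the 3252 strongest ethylene regions (3.90%, 2.87 to 5.29). Of the 53 strong gained regions, 51 overlapped a Col-0 air region and 45 a Col-0 ethylene region. Among gained regions of any strength, 70.0% overlapped a Col-0 air region. Both Col-0 sets held a counterpart for 30.0% of them, and Col-0 ethylene alone for 2.89%. All 17 strong lost regions overlapped a region in both Col-0 sets, as did 73.5% of lost regions of any strength.

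Where a region was kept, its position was kept too. The 2697 overlapping pairs had summits a median of 13 bp apart, and 93.9% of the pairs had summits within 50 bp. Only 27 pairs had summits more than 300 bp apart. Median widths of the paired regions were 306 bp in ein2 ethylene and 299 bp in ein2 air. Gained regions had a median width of 237 bp and lost regions of 252 bp. The gained and lost regions mostly lay far from the other set, with the nearest ein2 air summit a median of 9828 bp from gained summits and the nearest ein2 ethylene summit a median of 6907 bp from lost summits. On the 5 chromosomes, gained regions made up 42% to 43.2% of the ein2 ethylene regions and lost regions 15.9% to 19% of the ein2 air regions, so no chromosome stood apart.

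Sharing between the treatments was set beside that in Col-0 at the same numbers of regions. Taking 1000 regions per set, those of lowest p, 64.0% of ein2 ethylene regions were in ein2 air (interval 61.0 to 66.9), against 70.4% of Col-0 ethylene regions in Col-0 air (67.5 to 73.1). With 3252 regions the shares were 71.2% in ein2 (69.6 to 72.7) and 77.6% in Col-0 (76.1 to 79.0). At 250 regions the intervals of the lines overlapped widely, at 50.4% in ein2 (44.2 to 56.5) and 53.2% in Col-0 (47.0 to 59.3). Across lines, 79.3% of 3252 ein2 air regions were in Col-0 air, and 59.3% of 3252 ein2 ethylene regions were in Col-0 ethylene. With the treatments crossed, 68.3% of ein2 ethylene regions were in Col-0 air and 69.8% of ein2 air regions in Col-0 ethylene. These 3252 regions are all of ein2 air, but only a part of the 7852 of Col-0 air. Each line has 1 peak set per treatment, so the difference between the lines has no replicate check.

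**Figure D2:**
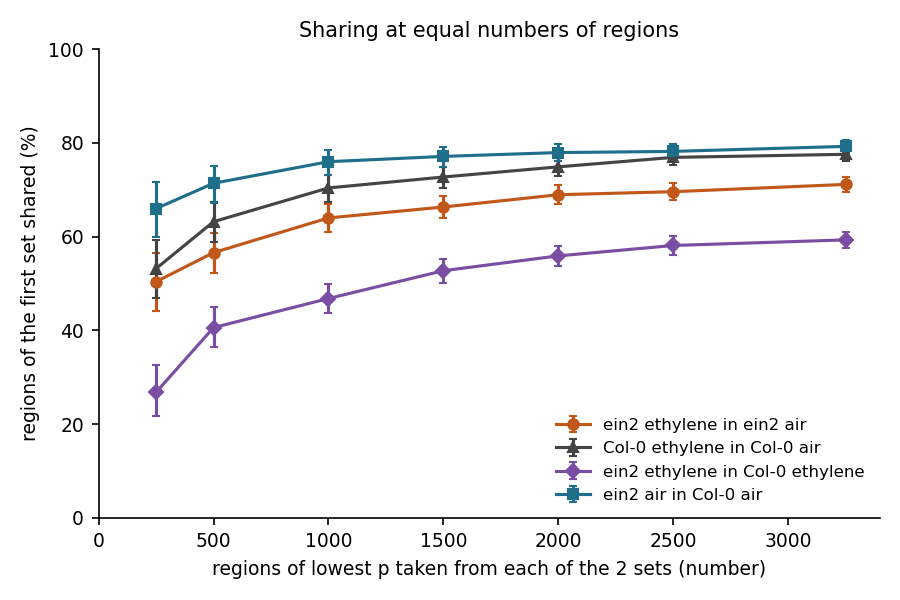
Percent of regions of the first-named set that overlap a region of the second, when the same number of regions of lowest p (x axis) is taken from both. Bars are 95% Wilson intervals for counting error only; at 3252 regions the ein2 pair (orange) is at 71.2%, the Col-0 pair (dark grey) at 77.6%, the ethylene pair of the 2 lines (purple) at 59.3% and the air pair (blue) at 79.3%.

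A smaller share of gained than of lost or kept regions lay inside genes, and the intervals, which cover counting error only, did not overlap. Gained regions come from the longer list and lost regions from the shorter one, and the difference was not tested. Of the 2007 gained regions, 55.8% had the summit inside a protein-coding gene (interval 53.6 to 58.0), 33.4% lay outside but within 1000 bp, and 10.8% lay farther away. Of the 573 lost regions, 80.8% were inside a gene (77.4 to 83.8), 15.5% within 1000 bp and 3.66% farther. Of the 2689 kept ein2 ethylene regions, 77.7% were inside a gene (76.1 to 79.2), 18.2% within 1000 bp and 4.09% farther. At equal numbers the order was the same, with 59.7% of 938 gained (56.5 to 62.8), 81.0% of 940 lost (78.3 to 83.3) and 77.1% of 2314 kept regions (75.4 to 78.8) inside a gene.

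The shares were also taken by strength. When ein2 ethylene was divided into 4 equal parts by p, in the strongest part, 63.3% of 79 gained (52.3 to 73.1) and 74.3% of 1095 kept regions (71.7 to 76.8) were inside a gene. Here the intervals overlapped, and the kept regions reached a −log10 p of 86.0 and the gained ones of 39.7. The intervals overlapped likewise among the 1000 strongest ein2 ethylene regions, with 60.4% of 53 gained (46.9 to 72.4) and 74.4% of 947 kept regions (71.6 to 77.1) inside a gene. In each of the 3 weaker parts the intervals did not overlap. In the last of these the shares were 51.8% of 904 gained (48.5 to 55.0) and 82.2% of 270 kept regions (77.2 to 86.3). In Col-0, 62.1% of 605 gained (58.2 to 65.9), 57.9% of 3285 lost (56.2 to 59.6) and 76.0% of 4532 kept regions (74.8 to 77.3) were inside a gene. The Col-0 lost regions come from the longer list of their pair, 7852 regions in Col-0 air against 5137 in Col-0 ethylene, whereas the ein2 lost regions come from the shorter one, so these shares are not compared between the lines. Summits more than 300 bp inside a gene made up 11.7% of gained, 21.8% of lost and 14.5% of kept regions in ein2.

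**Figure D3:**
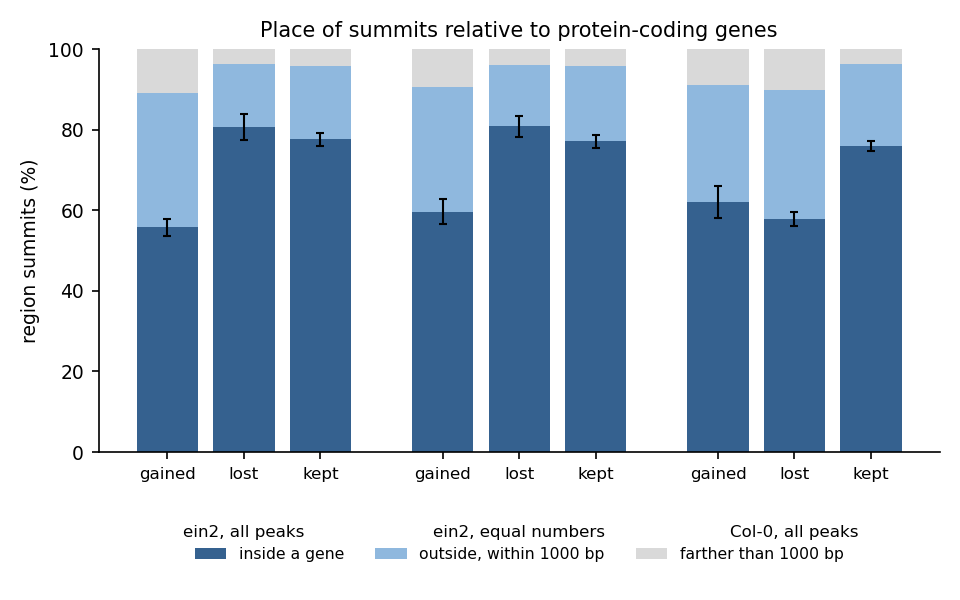
Percent of region summits inside a protein-coding gene (dark), outside but within 1000 bp (light blue) and farther away (grey), for gained, lost and kept regions in ein2 with all peaks, in ein2 at equal numbers, and in Col-0. Bars on the dark part are 95% Wilson intervals for counting error only; gained regions of ein2 are at 55.8% inside genes with all peaks and 59.7% at equal numbers.

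The strongest gained region, on chromosome 2 at 17445048 to 17445340 (TAIR10), lay more than 1000 bp from any protein-coding gene. Its fold enrichment over local background, the authors' own value for each peak, was 5.54 in ein2 ethylene, and overlapping regions had 4.03 in Col-0 ethylene and 8.91 in Col-0 air, so it was missing from ein2 air alone. Fold depends on the depth and background of its set. Folds of different sets are printed side by side, but no difference between them was tested or is read as a change of binding. Across the 2697 overlapping ein2 pairs, fold was lower in ethylene in 93.3%, with medians of 2.75 in ethylene and 3.89 in air. A lower fold in ethylene than in air at a single gene is therefore not particular to that gene. The second gained region, at 18659036 to 18659361 of chromosome 3, had its summit 806 bp from HEC2 (AT3G50330), which encodes a bHLH factor of carpel development. Its fold was 4.86 in ein2 ethylene, with 4.13 in Col-0 air and no region in Col-0 ethylene. The third, at 28343713 to 28344063 of chromosome 1, had 4.70 in ein2 ethylene, overlapped the annotated long noncoding RNA genes AT1G09563 and AT1G09567 and had a counterpart in Col-0 air.

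The next gained regions included several at regulators. A region at 9835461 to 9836054 of chromosome 3 had a fold of 4.42 and its summit 622 bp outside ICE1 (AT3G26744), a bHLH activator of the cold response, and had counterparts in both Col-0 sets. A region of fold 4.40 at 17506041 to 17506305 of chromosome 3, 25 bp outside CDF3 (AT3G47500), a DOF transcription factor gene, had a fold of 8.72 in Col-0 air and no counterpart in Col-0 ethylene. A region of fold 4.37 inside MAP1B (AT3G25740), a methionine aminopeptidase gene, was within 1000 bp of the ethylene-induced gene EDF3 as well. VHA-A1 (AT2G28520), a subunit gene of the vacuolar-type proton pump, held a region of fold 4.30 whose counterpart in Col-0 air had 7.17. All 10 gained regions of highest fold overlapped a Col-0 air region, and 5 of the 10 a Col-0 ethylene region. Of all 2007 gained regions, 70.0% overlapped a Col-0 air region. Of these 10, 3 had the summit inside a gene, 4 within 1000 bp and 3 farther away.

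Lost regions of highest fold lay mostly inside genes, 6 of 10, with 3 within 1000 bp and 1 farther away. The region of fold 5.66 in ein2 air at 21883919 to 21884276 of chromosome 1 was inside MPK2 (AT1G59580), a mitogen-activated protein kinase gene, and had folds of 3.35 in Col-0 ethylene and 5.87 in Col-0 air. XBAT33 (AT5G07270), which encodes a ubiquitin ligase with ankyrin repeats, held a region of fold 5.54, and KELP (AT4G10920), a transcriptional coactivator gene, one of 5.33. Further lost regions were inside KRP6 (AT3G19150), a cyclin-dependent kinase inhibitor gene, with a fold of 4.55 in ein2 air, and WRKY6 (AT1G62300), a transcription factor gene, with 4.51. The region near RAP2.4 (AT1G78080), of the ethylene response factor family, had a fold of 4.43, with 4.99 in Col-0 air. All 10 overlapped a Col-0 air region and 7 a Col-0 ethylene region. Of all 573 lost regions, 95.5% overlapped a Col-0 air region, so 10 of 10 is near the share of the class. Regions of a higher fold than that of MPK2 made up 9.53% of ein2 air. All of these had an ethylene counterpart by selection, since the MPK2 region was the lost region of highest fold.

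Among the lost regions of lowest p, the first was at 25111393 to 25111807 of chromosome 5 inside AT5G62560, with a −log10 p of 46.8 and a fold of 3.97 in ein2 air. The region inside AT5G04310 was 309 bp wide and had a fold of 3.98. PGIP1 (AT5G06860), whose product inhibits polygalacturonases of fungi, held a region of 577 bp and fold 3.62, with 7.49 in Col-0 ethylene and 5.20 in Col-0 air. ERF104 (AT5G61600), an ethylene response factor gene, held one of 3.79, with 5.18 in Col-0 ethylene and 4.78 in Col-0 air. These regions were absent from ein2 ethylene and present in the other 3 sets. AT5G62560 still had a different region in ein2 ethylene. Of lost regions assigned to a gene, 20.7% were at a gene with a different region in ein2 ethylene. For gained regions 14.3% were at a gene with a different region in ein2 air.

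The kept regions of highest fold lay inside genes in 9 of 10 cases and were found in all 4 sets. Of all kept ein2 ethylene regions, 77.7% lay inside a gene and 85.6% overlapped a region in both Col-0 sets. APD1 (AT2G38185), at 15999640 to 16000336 of chromosome 2, led both ein2 sets with a fold of 8.65 in ethylene and 13.7 in air. ETR2 (AT3G23150), an ethylene receptor gene, followed in ethylene with 8.29 and had 9.42 in air; the ethylene region spanned 8254222 to 8255085 of chromosome 3. VTI13 (AT3G29100), a vesicle trafficking gene, had 7.40 in ethylene and 8.19 in air, and NIG (AT4G13350), the gene of a GTPase that binds a nuclear shuttle protein of plant viruses, had 7.22 in ethylene and 10.5 in air. The 1 kept region of the 10 that lay far from protein-coding genes was at 19822411 to 19822874 of chromosome 5, with 7.32 in ethylene and 7.11 in air.

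The ENAP1 gene itself (AT3G11100) had a kept region inside it on chromosome 3. It spanned 3477312 to 3477621 in ein2 ethylene with a fold of 2.46, and 3477246 to 3477600 in ein2 air with a fold of 3.80. At EIN2 (AT5G03280) on chromosome 5, a region just outside the gene was kept, at 793328 to 793886 with a fold of 2.88 in ethylene and at 793289 to 793881 with 6.98 in air. A region inside EIN2, at 792739 to 793052 with a fold of 2.23, was in ein2 air and not in ein2 ethylene. It was among the weakest by fold, as 99.5% of ein2 air regions had a higher one. Both Col-0 sets held a region over this place, with a fold of 3.48 in air and, in a region of 2189 bp, 8.96 in ethylene.

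At the level of genes, with a gene counted when a region overlapped its span or 1000 bp on either side, 6151 of 27444 protein-coding genes (22.4%) had a region in ein2 ethylene and 4633 (16.9%) in ein2 air. With all peaks 2219 genes were gained (8.09%), 701 lost (2.55%) and 3932 kept (14.3%). At equal numbers the gained genes were 1121 (4.08%), the lost genes 1218 (4.44%) and the kept genes 3415 (12.4%). The gene lists below are to be read beside these shares of all genes. By construction all 701 lost genes stayed lost at equal numbers. There 517 kept genes joined them, and 1098 gained genes were in neither set. Gained and lost genes almost all had a gained or lost region of their own: at 25 gained (1.13%) and 15 lost genes (2.14%) a kept region merely crossed the 1000 bp limit in 1 of the sets.

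The regions that these genes had in Col-0 were then counted, to ask which of the gained genes are also bound in the wild type. Of the 2219 gained genes, 905 (40.8%) had a region in both Col-0 sets, 837 (37.7%) in Col-0 air alone, 65 (2.93%) in Col-0 ethylene alone and 412 (18.6%) in neither. Of the 701 lost genes, 567 (80.9%) had one in both Col-0 sets, 107 (15.3%) in air alone, 2 in ethylene alone and 25 (3.57%) in neither. Of the 3932 kept genes, 3517 (89.4%) had one in both, 386 (9.82%) in air alone, 9 in ethylene alone and 20 (0.509%) in neither. Of the 1121 genes gained at equal numbers as well, 566 (50.5%) had a region in both Col-0 sets and 122 (10.9%) in neither. At the level of regions, 27.2% of gained (25.3 to 29.1), 4.19% of lost (2.83 to 6.16) and 0.818% of kept ein2 ethylene regions (0.541 to 1.24) overlapped no Col-0 region.

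**Figure D4:**
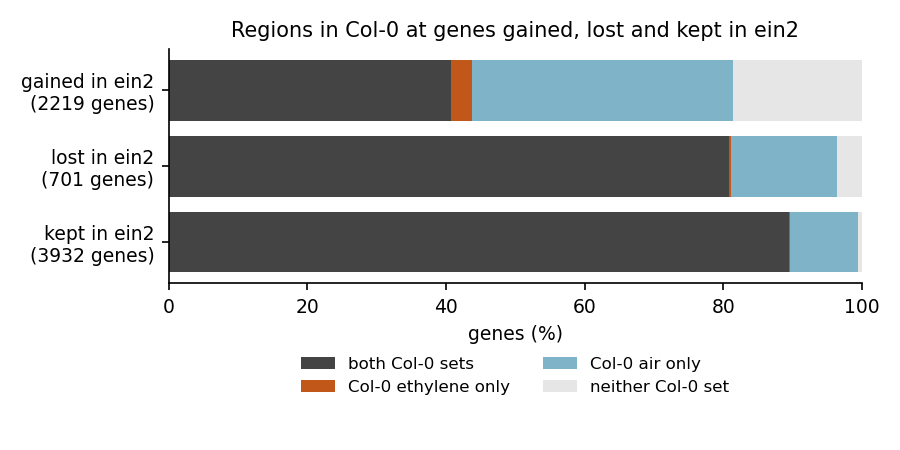
Percent of the 2219 genes gained, 701 lost and 3932 kept in ein2 that had an ENAP1 region in both Col-0 sets (black), in Col-0 ethylene alone (orange), in Col-0 air alone (blue) or in neither (light grey). Genes with a region in both Col-0 sets are 40.8% of gained, 80.9% of lost and 89.4% of kept genes.

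Genes of ethylene signalling were found among kept, gained and lost genes, and most of the gained ones had weak regions. Of 18 such genes, 8 had a region in ein2 ethylene and 6 in ein2 air, with 4 gained, 2 lost and 4 kept, against 8.09%, 2.55% and 14.3% of all genes. Among the receptors, ETR1 had folds of 3.58 in ethylene and 4.73 in air, EIN4 had 3.76 in air and no region in ethylene, and ERS1 had 2.59 in ethylene and none in air. The transcription factor genes EIN3 and EIL1 had folds of 2.41 and 2.79 in ethylene and no region in air. EBF1, whose F-box protein targets EIN3 for breakdown, had 2.40 in ethylene. ETP2, whose F-box protein targets EIN2, had 2.50 in air, from a region in its flank with the summit assigned to another gene. In ein2 air 95.9% of regions had a higher fold than that one. At equal numbers only EIL1 remained gained, 1 of 18, against 4.08% of all genes. ETP2 and EIN4 stayed lost, as every lost gene does under that rule.

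The ethylene-induced genes were the group with the largest share gained among the 15 hormone and process lists, 5 of 16 (31.3%), against 8.09% of all genes. In this list 0 were lost and 2 kept. It shares ETR2, ERS1, ERS2, EBF2, RTE1 and CTR1 with the signalling list, so these counts are not independent. ERS1 is gained in both lists. ARGOS, a promoter of organ growth, had a fold of 3.08 in ein2 ethylene, EDF1 2.23 and ERF1 2.49. At equal numbers 3 of 16 were gained, namely ARGOS, EDF1 and EDF3, against 4.08% of all genes. Of the 5 gained with all peaks, Col-0 air held regions at 4 and Col-0 ethylene at 0. Among all 16 members, Col-0 air held regions at 9 and Col-0 ethylene at 1. Of all 2219 gained genes, 40.8% had a region in both Col-0 sets, 37.7% in Col-0 air alone and 2.93% in Col-0 ethylene alone. Of the 16 ethylene biosynthesis genes, ACS6 and EOL2 were gained, with folds of 2.22 each in ethylene, and neither was in any set at equal numbers.

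Among jasmonate genes 42.3% and among brassinosteroid genes 40.9% were kept, against 14.3% of all genes. Of 26 jasmonate genes, 15 had a region in ein2 ethylene (57.7%) and 11 in ein2 air (42.3%), with 4 gained, 0 lost and 11 kept with all peaks, and 2 gained, 1 lost and 10 kept at equal numbers. The kept ones included the transcription factor genes MYC2, with 2.18 in ethylene and 2.98 in air, MYC3, with 2.31 in ethylene and 4.66 in air, and MYC4, with 4.27 in ethylene and 5.51 in air. JAZ2, one of the repressors of these factors, had 4.50 in ethylene and 5.90 in air, while the repressor gene JAZ8 was gained with 3.20 and the receptor gene COI1 with 2.34. The synthesis genes AOS, AOC4, OPR3 and LOX3 were kept. Of 22 brassinosteroid genes, 13 were in ein2 ethylene (59.1%) and 10 in ein2 air (45.5%), with 4 gained, 1 lost and 9 kept with all peaks, and 3 gained, 2 lost and 8 kept at equal numbers. The co-receptor gene BAK1 had 3.15 in ethylene and 4.05 in air, and the kinase gene BIN2 had 3.79 in ethylene and 4.55 in air. The synthesis genes DWF4 and ROT3 were gained, with 3.32 and 3.28 in ethylene, also at equal numbers.

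Of 25 clock genes, 7 were gained (28.0%), 1 lost (4.00%) and 7 kept (28.0%), against 8.09%, 2.55% and 14.3% of all genes. TOC1, an evening-phased clock gene, had 5.85 in ethylene and 7.02 in air, and GI had 3.71 in ethylene and 4.75 in air. Of the evening complex, ELF3 was gained with 3.55 in ethylene and ELF4 was lost with 3.16 in air. At equal numbers the clock genes had 2 gained, 2 lost and 6 kept members. Of 28 genes of light signalling and growth in the dark, 5 were gained, 0 lost and 3 kept with all peaks, and 2 were gained, 1 lost and 2 kept at equal numbers. The photoreceptor gene PHYA was gained with 2.90 in ethylene, and PIF4, a growth-promoting bHLH factor gene, with 2.84. HY5, which opposes growth in the dark, had 2.05 in ethylene and 4.08 in air, and was lost at equal numbers.

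Of 28 genes for histone acetylation and deacetylation, 9 had a region in each ein2 set (32.1% in both treatments), with 2 gained, 2 lost and 7 kept. The acetyltransferase genes HAG1 (GCN5), with 2.04 in ethylene and 3.91 in air, HAG2, with 2.52 in ethylene and 2.97 in air, HAM1, HAM2 and HAF1 were kept. The gained and lost members were all deacetylase genes. HDA9 had 2.85 and HDA14 had 2.47 in ethylene, while HDA15 had 3.53 and HDA2 had 2.76 in air. At equal numbers HDA9 was the 1 gained member, and HDA15, HDA2 and HAG1 were lost, beside 4.08% gained and 4.44% lost of all genes.

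The remaining process lists held 14 to 29 genes each, to be read beside 8.09% gained, 2.55% lost and 14.3% kept of all genes. Of 18 gibberellin genes 3 were gained, among them the receptor gene GID1B with 3.01 in ethylene and GAI, a growth repressor gene, with 2.46, and 1 was kept. Of 19 cold genes 4 were gained and 2 kept. Of 29 genes of auxin synthesis and transport 4 were gained and 2 kept, the efflux carrier gene PIN4 with 3.66 in ethylene and 4.07 in air and the influx carrier gene LAX3 with 3.60 in ethylene and 3.84 in air. Of 28 abscisic acid genes 3 were gained and 6 kept, among them the receptor gene PYL5 with 4.95 in ethylene and 6.13 in air. Of 24 flowering genes 2 were gained, 1 lost and 5 kept. CDF3 was gained, and CDF2 of the same DOF group was lost with 3.77 in ein2 air. Of 14 low-oxygen genes 1 was gained and 2 kept, and of 19 actin and ubiquitin housekeeping genes 2 were gained and 6 kept. At equal numbers 4.08% of all genes were gained, 4.44% lost and 12.4% kept. There the gained, lost and kept counts were 1, 0 and 1 for gibberellin and 2, 1 and 1 for cold. They were 2, 0 and 2 for auxin, 1, 0 and 6 for abscisic acid and 2, 2 and 4 for flowering. For low oxygen they were 1, 1 and 1, and for housekeeping genes 2, 0 and 6. GID1B stayed gained, and GAI was in neither set.

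**Figure D5:**
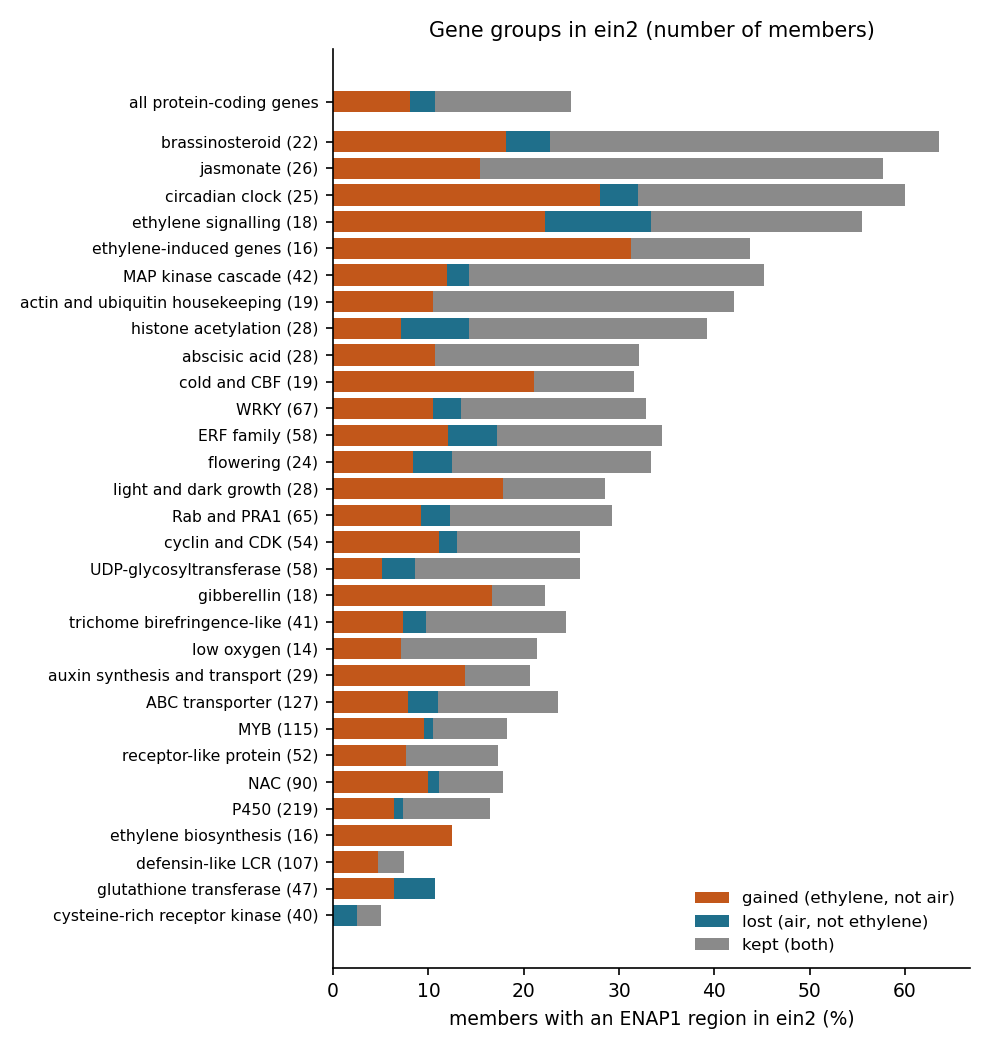
Percent of the members of each gene group with an ENAP1 region gained (orange), lost (blue) or kept (grey) in ein2, for the 15 process lists and the families of at least 40 genes, with the number of members in brackets and all protein-coding genes on top (8.09% gained, 2.55% lost, 14.3% kept). Brassinosteroid genes have the highest share in ein2 ethylene, 59.1%, and cysteine-rich receptor kinases the lowest, 2.50%.

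Gene families were found by their symbols. Their counts are to be read beside 8.09% gained, 2.55% lost and 14.3% kept of all genes with all peaks. At equal numbers these shares were 4.08%, 4.44% and 12.4%. The group with symbols such as ERF, RAP2, CRF or DREB, called the ERF family here, had 58 genes. A matching symbol does not make each member an ethylene response factor gene. With all peaks 7 were gained (12.1%), 3 lost (5.17%) and 10 kept (17.2%). At equal numbers 1 was gained, 6 lost and 7 kept. The kept ERF4, a repressor gene, had 3.42 in ethylene and 4.51 in air. The flowering repressor gene RAP2.7, included by its symbol though not an ethylene response factor gene, had 4.36 in ethylene and 8.03 in air. RAP2.12, an activator of the response to low oxygen, was gained through the region in GLIP5, of fold 4.42, both with all peaks and at equal numbers. RAP2.4, ERF7 and ERF104 were lost, with 4.43, 4.06 and 3.79 in air.

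Of 42 genes of mitogen-activated protein kinase cascades, 18 had a region in ein2 ethylene (42.9%) and 14 in ein2 air (33.3%). Over all genes the shares were 22.4% and 16.9%. With all peaks 5 were gained (11.9%), 1 lost (2.38%) and 13 kept (31.0%), against 8.09%, 2.55% and 14.3% of all genes. At equal numbers 1 was gained, 3 lost and 11 kept, against 4.08%, 4.44% and 12.4% of all genes. Lost thus exceeded gained over all genes as well under that rule. MPK2 was the lost gene, whereas its close relative MPK1 was kept with 2.51 in ethylene and 5.76 in air. MPK3, a kinase gene of immune signalling, was gained with 2.66, and MEKK1, further up the same cascade, with 2.00 in ethylene, neither of them at equal numbers. MKK9, a kinase kinase gene linked to ethylene and camalexin synthesis, had 3.42 in ethylene and 4.75 in air. MKK6, which acts in cell division, had 2.95 in ethylene and 7.86 in air.

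Of 67 WRKY genes, 7 were gained (10.4%), 2 lost (2.99%) and 13 kept (19.4%) with all peaks, against 8.09%, 2.55% and 14.3% of all genes. At equal numbers 5 were gained, 5 lost and 10 kept, against 4.08%, 4.44% and 12.4%. WRKY48 had 3.75 in ethylene and 7.03 in air, WRKY13 was gained with 3.61, and WRKY6 and WRKY4 were lost with 4.51 and 3.66 in air. Of 115 MYB genes, 11 were gained (9.57%), 1 lost and 9 kept, and of 90 NAC genes 9 were gained (10.0%), 1 lost and 6 kept, so both families had fewer kept members than the 14.3% of all genes. NAC083 had 5.31 in ethylene and 5.44 in air, and NAC019, a stress-responsive member, was gained with 3.31 in ethylene. Of 24 Aux/IAA genes, which encode auxin repressors, 4 were gained, 2 lost and 5 kept. IAA9 had 5.30 in ethylene and 5.80 in air, IAA1 was gained with 3.04, and IAA20 and IAA31 were lost with 3.75 and 3.53 in air. The regions of IAA1, IAA20 and IAA31 lay in the flank, each with its summit assigned to another gene. At equal numbers the MYB genes had 5 gained, 3 lost and 7 kept members. The NAC genes then had 5, 2 and 5, and the Aux/IAA genes 4, 3 and 4.

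Of 33 cellulose synthase and related genes 3 were gained (9.09%), 1 lost (3.03%) and 4 kept (12.1%), near the shares of all genes. The cellulose synthase gene CESA1 was gained with 2.77 in ethylene, and CESA6, which works in the same primary wall complex, was lost with 3.57 in air. EXPA1 was gained with 3.41 and EXPA2 lost with 3.17, the only members of 35 expansin genes with a region in either ein2 set. Of 15 tubulin genes 4 were gained, 1 lost and 3 kept, with TUB6 at 3.79 in ethylene and 3.25 in air. Of 54 cyclin, cyclin-dependent kinase and kinase inhibitor genes 6 were gained (11.1%), 1 lost (1.85%) and 7 kept (13%). Of the inhibitors, KRP6 was lost with 4.55 in air, while ICK1 had 2.73 in ethylene and 4.55 in air and ICK5 had 2.67 in ethylene and 4.59 in air. The 5 cyclin and kinase genes gained at equal numbers included CYCD3;1, with 2.95 in ethylene, which promotes cell division. In this group 2 were then lost and 6 kept. Under that rule 2 cellulose synthase and related genes were gained, 1 lost and 4 kept. Of the tubulin genes 3 were gained, 1 lost and 3 kept.

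Other families had few regions in ein2 with or without ethylene. Of 107 small cysteine-rich genes of the LCR and SCRL families, 8 had a region in ethylene (7.48%) and 3 in air (2.80%), against 22.4% and 16.9% of all genes. Of 47 glutathione transferase genes, 3 were gained, 2 lost and 0 kept, and at equal numbers 0 were gained, 2 lost and 0 kept. Of 40 cysteine-rich receptor kinase genes, 1 had a region in ethylene (2.50%) and 2 in air (5%). Of 219 cytochrome P450 genes, 34 were in ethylene (15.5%) and 22 in air (10.0%), with 14 gained, 2 lost and 20 kept. At equal numbers 6 were gained, 8 lost and 14 kept. Lost exceeded gained over all genes too under that rule, at 4.44% against 4.08%. CYP707A1, which degrades abscisic acid, had 3.23 in ethylene and 5.88 in air.

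Across all 54 lists, more members were gained than lost in 45 lists, more were lost in 3, and the counts were equal in 6. Over all genes 2219 were gained and 701 lost, so gained outnumbered lost there too. At equal numbers of regions, more were gained in 22 lists, more were lost in 13, and the counts were equal in 19. Over all genes 1121 were then gained and 1218 lost. The 2039 genes of the lists held 185 gained, 45 lost and 274 kept genes. Of all 27444 genes, 8.09% were gained, 2.55% lost and 14.3% kept.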

How the data were processed

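Per the submitters' processing notes, the authors used BWA for alignment to TAIR10 and MACS2 2.1.0.20150603 for peaks; BWA's version, filters and threshold were not stated there. The deposited files give each region's position and, as the authors' peak caller wrote them, a score, the fold enrichment over local background (a ratio), the −log10 p and the −log10 q. A condition's replicates share 1 deposited file. The ein2 files hold 45.9% (ethylene) and 39.7% (air) of the peak numbers they reach, so they are subsets of longer lists. Of 6 peak files 4 were used; the other 2, with 12 value columns, appear in none of the sample labels and were left out.

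No entries within a set overlapped. Starts are printed 1-based. Overlaps, intervals and ranks were computed with Python 3.11.15, pandas 2.3.3, NumPy 2.4.6 and SciPy 1.17.1 and tested on simulated intervals. Plots were drawn with matplotlib 3.10.9. Genes were the 27444 protein-coding genes of a RefSeq table of assembly TAIR10.1, used for names and for place relative to regions, with no coordinate of it printed. As a check of shared coordinates, 71.9% of ein2 ethylene and 75.7% of ein2 air summits lay within 300 bp of a gene edge, and at most 26.5% after shifts of 2000 or 20000 bp. The table gives no strand, so promoters were not separated from gene ends. Each region was given the gene that held its summit or, failing that, the nearest within 1000 bp. A gene's fold is that of its region of highest fold, which may lie in the flank with its summit assigned to another gene. AT3G11100 is named ENAP1 from general knowledge.

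The regions compared, the 54 lists and the tests were chosen with earlier results of these data known. Genes were named by a rule: those at the 10 gained, 10 lost and 10 kept regions with the highest fold, those at the 10 gained and 10 lost regions of lowest p among the strongest 1000 of their set, members of the lists, ENAP1 and EIN2. Of the list symbols 2 matched no gene, and the loci of some symbols with several matches were set by hand.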

Additional observations from a re-analysis of the deposited data

How the results depend on the processing

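No paired analysis was possible because each condition has 1 peak set for both replicates, and leaving out a replicate was not possible for the same reason. Of 20 alternative values, 9 stayed within 1.5 times the reported count or inside the reported share's 95% interval, and 11 did not; the largest shifts among the 9 were of gained genes to 1600 and of lost genes to 514, both with the gene of the summit. The share of ein2 ethylene regions found in ein2 air was 57.3%, 71.2% at equal numbers of peaks and 79.3% at the common lowest −log10 q of 10.9. The share of ein2 air regions found in ein2 ethylene was 82.4%, 71.1% at equal numbers and 62.6% at the common q, so which share was larger turned round at the common q. Gained genes numbered 2219, against 1121 at equal numbers, 688 at the common q and 1451 when no flank was added to genes. Lost genes numbered 701, against 1218 at equal numbers and 1615 at the common q. The order of gained and lost genes thus depended on which regions were taken. Kept genes numbered 3932, against 2596 with no flank and 2506 when only the gene of the summit was counted. Both equal numbers and the common q leave out weak ein2 ethylene regions by construction. A minimum overlap of 50% of the shorter region, or summits within 100 bp, gave 57.2% and 56.2% of ein2 ethylene and 82.3% and 81.2% of ein2 air regions shared. Depth is unknown, so regions missing from a set may lie just under its limit.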
